A study of Mus musculus with 58 samples.

Results

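Mitochondrial ribosomal proteins are the proteins of the ribosome that works inside mitochondria. The genes described here are those with a symbol of the form Mrpl or Mrps followed by a number and at most 1 letter, and 78 of the 24028 genes in the deposited count table had such a symbol. Of these, 49 have Mrpl symbols, given to proteins of the large subunit, and 29 have Mrps symbols, given to proteins of the small subunit. The symbols do not sort the proteins perfectly. The products of Mrps18a and Mrps30 sit in the large subunit, and the product of Mrps36 is better known as part of the 2-oxoglutarate dehydrogenase complex.

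The mitochondrial ribosome translates the few messenger RNAs that mitochondrial DNA encodes, all of which make subunits of the respiratory chain and the ATP synthase. Its own proteins are made in the cytosol from nuclear genes and imported, so a cell that builds mitochondria has to transcribe these genes alongside those of import, respiration and mitochondrial tRNA charging. A naive T cell is small and quiescent, and on stimulation it grows, divides and enlarges its mitochondrial mass.

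The series measured poly(A) RNA of mouse CD4+ T cells in 58 libraries. There are 15 groups, since each of 3 genotypes was sampled in 5 states, and most groups have 4 libraries. Naive KO and naive WT cells have 3 each. WT mice are wild type. KO mice (labelled T1792 delta/delta) carry a CD4cre transgene and floxed alleles of the miR-17∼92 microRNA cluster, so the cluster is deleted in T cells, and TG mice (labelled T1792 tg/tg) carry CD4cre and a Rosa26 transgene in which a CAG promoter expresses miR-17∼92 once Cre has removed a stop cassette. KO and TG cells carry Cre and WT cells do not, so against WT an effect of Cre itself cannot be told apart from either allele. TG and KO cells, where compared directly, both carry it. Naive cells were purified from lymph nodes and spleens pooled over 10 mice of both sexes, and were either kept naive or cultured for 24 or 48 h on anti-CD28 at 0.2 µg/ml with anti-CD3 at 0.25 µg/ml (called very weak) or 0.5 µg/ml (called weak), with 50 U/ml of IL-2 added. The labels do not say that libraries of a group came from separate pools or cultures, so p-values here measure the spread between these libraries, which may be technical.

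Levels are given as CPM, a library's counts brought to a common total with TMM scaling, and are shares of that library, so in these bulk samples fewer cells of a type and less RNA per cell cannot be told apart, and an amount of RNA per cell cannot be read. Library totals ran from 19197383 to 20810338 counts. A gene is said to rise, fall or be called where edgeR's quasi-likelihood test gave an adjusted p under 0.05 over all genes tested, which were 13709 in the full table and included all 78 members. The 8 measured markers of CD4 T cells summed to between 6073 and 7626 CPM in naive libraries and between 2058 and 4169 CPM in stimulated ones. Naive libraries also held markers of other cells, with 149 to 418 CPM over 8 B cell genes, 98.8 to 320 CPM over 10 myeloid genes, 90.2 to 522 CPM over 4 erythroid genes, 61.3 to 149 CPM over 6 NK cell genes and 29.2 to 67.1 CPM over 2 CD8 T cell genes. In stimulated libraries the same sums reached at most 83.8, 11.3, 10.5, 55.7 and 26.1 CPM. In stimulated groups 1 to 3 of the myeloid genes and up to 2 of the erythroid genes were at 0 in every library. The part of these cells in the difference between naive and stimulated libraries was not tested.

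Promoter windows of 300 bases, from 250 before to 50 after the start of the gene, were taken from RefSeq (build GRCm38.p6) and existed for 69 of the 78 members. They were searched on both strands for 6 short motifs, of which 3 were more frequent in members than in the 10795 tested genes with a window. The ETS core CCGGAAG, bound by ETS factors such as GABP, was in 37.7% of member windows (26 of 69) and in 19.6% of tested genes. The YY1 motif AAGATGGCG, which can overlap an ETS core by the letters AAG, was in 11.6% of member windows (8 of 69) and in 3.37% of tested genes. The NRF1 motif was in 4.35% (3 of 69) against 2.23%. The others were less frequent in members, the E-box CACGTG in 7.25% against 11.5%, CCAAT in 39.1% against 43.2% and the TATA letters TATAAA in 7.25% against 9.31%. A match is a description of letters, and the windows were not compared by a test. Below are 4 windows, printed 5′ to 3′ on the gene's strand with matches in capitals. Mrpl12 (window chr11:120484387-120484686) is the member that rose most after 24 h of either stimulus in WT cells. Mrps27 (window chr13:99344536-99344835) rose most at weak 24 h among members with both an ETS core and a YY1 motif. Mrpl24 (window chr3:87919294-87919593) fell in every activated state of WT cells. Mrpl53 (window chr6:83108858-83109157) had the largest genotype difference. None of the 6 motifs had a match in the windows of Mrpl12 and Mrpl24, which says only that these letters are not in these windows. The window of Mrpl24 lies around a start inside the span of the gene, which begins upstream at 87918131, so the first bases of that span were not searched.
Mrpl12: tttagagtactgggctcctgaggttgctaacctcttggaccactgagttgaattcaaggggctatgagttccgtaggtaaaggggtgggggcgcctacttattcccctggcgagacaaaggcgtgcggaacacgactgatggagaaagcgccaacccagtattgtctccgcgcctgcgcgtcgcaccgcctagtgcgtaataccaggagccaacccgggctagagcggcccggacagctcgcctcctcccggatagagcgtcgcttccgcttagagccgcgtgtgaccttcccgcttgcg
Mrps27: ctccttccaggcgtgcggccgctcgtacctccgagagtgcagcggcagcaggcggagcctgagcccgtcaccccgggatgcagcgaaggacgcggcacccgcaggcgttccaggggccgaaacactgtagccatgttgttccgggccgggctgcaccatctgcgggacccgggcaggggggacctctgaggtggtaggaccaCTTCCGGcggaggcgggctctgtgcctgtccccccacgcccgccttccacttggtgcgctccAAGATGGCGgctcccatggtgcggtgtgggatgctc
Mrpl24: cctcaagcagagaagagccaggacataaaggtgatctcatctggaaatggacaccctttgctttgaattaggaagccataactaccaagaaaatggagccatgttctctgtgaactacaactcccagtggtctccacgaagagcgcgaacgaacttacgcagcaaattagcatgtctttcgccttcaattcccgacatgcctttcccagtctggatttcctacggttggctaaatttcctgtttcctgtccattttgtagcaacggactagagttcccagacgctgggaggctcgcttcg
Mrpl53: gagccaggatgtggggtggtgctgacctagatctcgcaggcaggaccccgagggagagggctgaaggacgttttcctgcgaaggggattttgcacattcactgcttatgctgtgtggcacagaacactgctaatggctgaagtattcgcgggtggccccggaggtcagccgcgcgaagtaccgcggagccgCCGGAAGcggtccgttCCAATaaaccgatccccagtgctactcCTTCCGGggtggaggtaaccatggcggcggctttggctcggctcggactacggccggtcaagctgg

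Naive WT cells already expressed most members at moderate levels. Levels of different genes are given per kilobase of the authors' gene model, so their order depends in part on the width of the models. Highest was Mrpl24 (chr3:87918131-87923450), a protein beside the exit tunnel, at 106.9 ± 5.53 CPM per kb (SD, n = 3). Mrpl30 (chr1:37890477-37898338) followed at 105 ± 16.7 CPM per kb. These neighbours did not differ beyond their spread. Mrpl52, Mrps16 and Mrps21 came next, at 67.3 ± 5.41, 60.8 ± 8.18 and 60.7 ± 1.84 CPM per kb. The lowest were Mrps22 at 3.16 ± 0.402 CPM per kb, Mrps25 at 2.88 ± 0.252 CPM per kb and Mrpl23 at 1.91 ± 0.250 CPM per kb. The models of Mrps22 and Mrps25 are wide, at 4002 and 6065 bases. Not divided by width, these genes were at 12.7 and 17.4 CPM, above Mrps36 at 4.93 CPM. In WT cells after 24 h of the weak stimulus the order had changed at the top. Mrpl12 led at 282 ± 28.8 CPM per kb (SD, n = 4), ahead of Mrpl20 at 199 ± 10.1, Mrpl30 at 175 ± 7.97, Mrpl42 at 157 ± 7.15 and Mrpl18 at 153 ± 8.07 CPM per kb. Mrpl42 and Mrpl18 did not differ beyond their spread.

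Stimulated WT libraries held far more RNA of the 78 genes, as a share of the library, than naive ones. In naive WT libraries the sum was 2463, 2318 and 2326 CPM. It was 6095, 5442, 5835 and 5409.9 CPM after 24 h of the very weak stimulus and 6042, 5621, 5849 and 5892 CPM after 24 h of the weak one. After 48 h it was 4855, 4859, 5288 and 5496 CPM (very weak) and 4897, 4807, 5162 and 4958 CPM (weak). No stimulated WT library came near the naive ones, and the weak 48 h libraries all lay below the weak 24 h libraries. The members took 0.235% of all counts in naive WT libraries on average and 0.578% in WT libraries of the weak 24 h group. The same sum over the 85 cytosolic ribosomal protein genes did not follow, and its mean was 58459 ± 8574 CPM in naive WT cells (n = 3) and 50840.2 ± 4011 CPM after 24 h of the weak stimulus (n = 4).

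**Figure D1:**
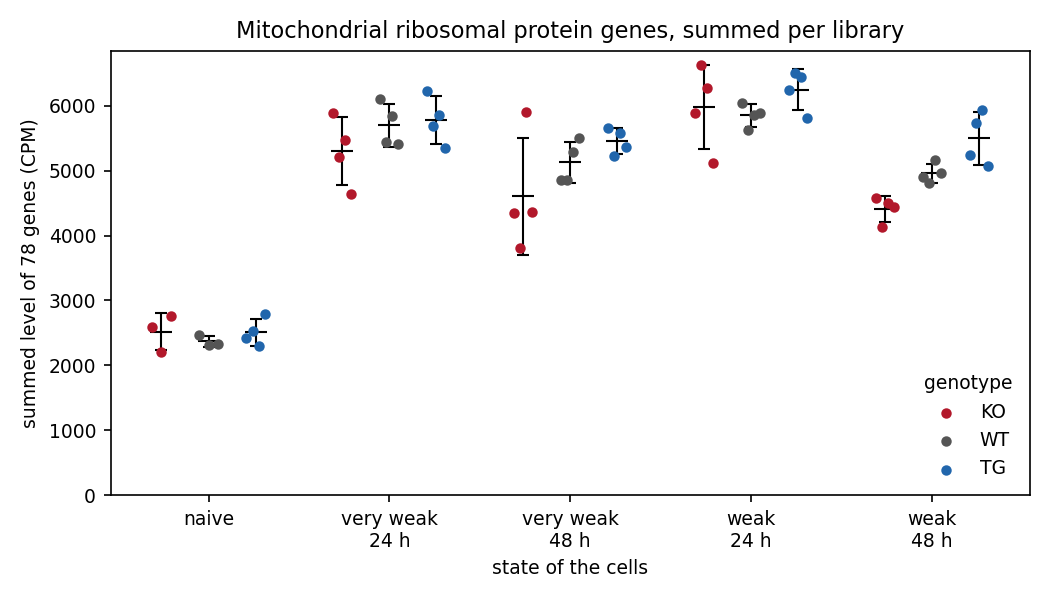
Summed level of the 78 genes in CPM (vertical axis, from 0) in every library, by state of the cells, with genotypes in colour; points are libraries and bars are the mean ± SD of a group. Naive libraries of all 3 genotypes lie between 2214 and 2798 CPM and all stimulated libraries between 3808 and 6621 CPM.

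By gene, the rise was nearly universal. In WT cells, 74 of 78 members rose and 2 fell after 24 h of the very weak stimulus, where 36% of all genes tested rose and 40.1% fell. The weak stimulus at 24 h gave the same counts of members, 74 up and 2 down, against 36.7% and 40.6% of all genes. At 48 h, 74 members rose and 1 fell under the very weak stimulus (38.7% and 38.9% of all genes) and 74 rose and 1 fell under the weak stimulus (39.3% and 38.8%). The median member rose by 1.32, 1.34, 1.20 and 1.12 on the log2 scale in these 4 comparisons, in the order given, while the median of all genes lay between −0.09 and 0.02. The 4 comparisons share the naive libraries. All 29 Mrps genes rose in each of them, as did 45 of the 49 Mrpl genes. Leaving out any 1 library left between 73 and 74 members called higher in every one of the 4. DESeq2 called the same numbers of members, and for the first comparison 35.3% of all genes higher and 40.5% lower.

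Mrpl12 (chr11:120484637-120488754) had the largest rise at 24 h. Its product forms the flexible stalk of the large subunit that recruits the translation GTPases. Its level in naive WT libraries was 43.1, 43.6 and 42.8 CPM, against 306, 248, 266 and 249 CPM after 24 h of the weak stimulus, a 6.19-fold difference (log2 2.63, SE 0.16, edgeR adjusted p = 4.02e-20). By 48 h the weak stimulus left it at 164, 165, 192 and 165 CPM, still above every naive library and below every 24 h library. Mrps6 (chr16:92058336-92112227), a small subunit protein, stood at 19.3, 17.8 and 18.3 CPM in naive WT libraries and at 101, 94.8, 109 and 109 CPM at 24 h (log2 2.49, SE 0.14, edgeR adjusted p = 3.45e-22). Its naive and stimulated libraries did not overlap in any of the 4 comparisons. Another gene, Slc5a3, overlaps Mrps6 in the annotation, with 49537 counts over all libraries against 95162 for Mrps6. Its part in these values was not tested.

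Mrpl20, Mrps22 and Mrpl45 followed. Mrpl45 (chr11:97314923-97329920), whose product lies at the exit tunnel near the inner membrane, was at 30.0, 30.1 and 26.8 CPM in naive WT cells and at 139.5, 141, 139 and 139 CPM after 24 h of the weak stimulus (log2 2.27, SE 0.10). It held that level at 48 h, with 139, 143, 142 and 137 CPM. Mrps22 (chr9:98588730-98601679), a protein with no bacterial counterpart, went from 13.6, 13.6 and 10.8 CPM to 60.1, 65.2, 56.4 and 64.4 CPM (log2 2.28, SE 0.12), and Mrpl20 (chr4:155802878-155808831) rose by 2.30 on the log2 scale (SE 0.14). At the other end of the members that rose, Mrpl4, Mrps9 and Mrpl10 rose by 0.66, 0.69 and 0.71 on the log2 scale after 24 h of the weak stimulus. The leading genes were nearly the same in the other 3 comparisons. Under the very weak stimulus they were Mrpl12, Mrps6, Mrpl20 and Mrps22 at 24 h (2.57, 2.54, 2.28 and 2.16 on the log2 scale) and Mrps6, Mrpl45, Mrpl20 and Mrpl12 at 48 h (2.37, 2.22, 2.10 and 2.08). Under the weak stimulus at 48 h they were Mrpl45, Mrps6, Mrps22 and Mrpl20 (2.27, 2.24, 2.14 and 2.10), with Mrpl12 at 1.99.

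**Figure D2:**
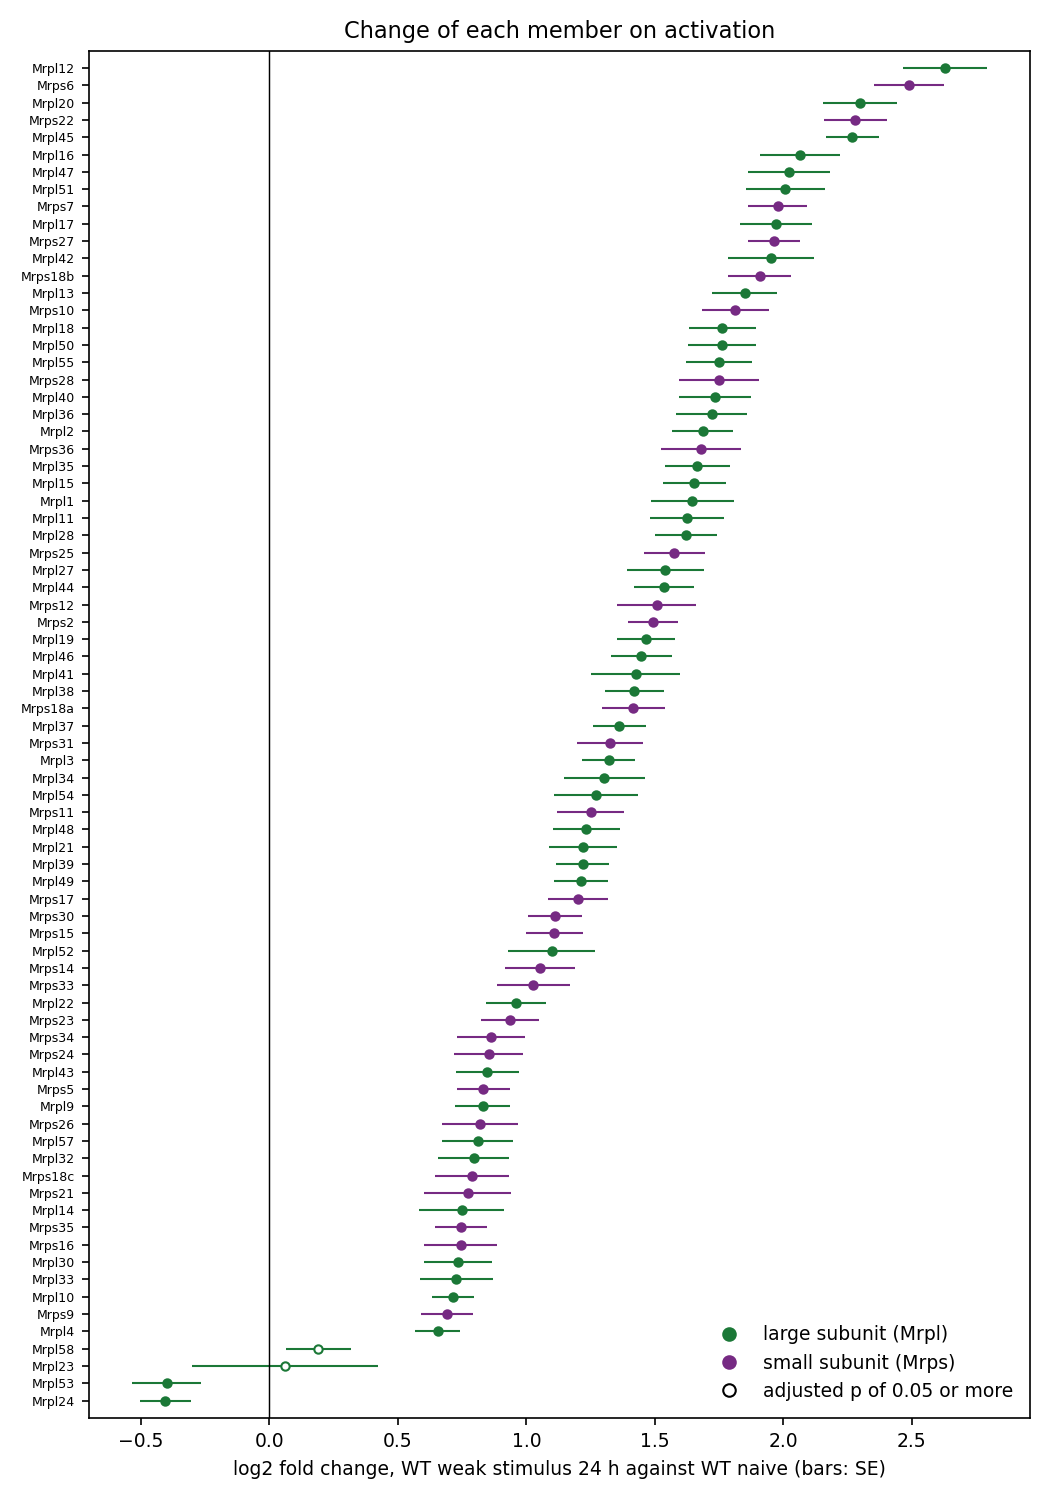
Log2 fold change of each of the 78 genes between WT cells after 24 h of the weak stimulus and naive WT cells (horizontal axis), sorted by size; colour gives the subunit in the symbol, bars are standard errors and open points have an edgeR adjusted p of 0.05 or more. Mrpl12 leads at 2.63, and 2 genes, Mrpl53 and Mrpl24, lie below 0.

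Of the 78 members, 4 did not follow. Mrpl24, with Mrpl30 among the 2 highest members per length in naive cells of each genotype, fell in all 4 comparisons. It stood at 134, 122 and 123 CPM in naive WT libraries, at 96.6, 91.8, 98.6 and 95.8 CPM after 24 h of the weak stimulus and at 90.4, 90.2, 79.2 and 81.9 CPM after 48 h. The naive and stimulated libraries did not overlap, and the fall was −0.40 (SE 0.10, edgeR adjusted p = 0.000278) at 24 h and −0.57 (SE 0.10, edgeR adjusted p = 1.34e-06) at 48 h on the log2 scale. Its 3′ end overlaps Rrnad1, which lies on the other strand, in the annotation. Over all libraries Mrpl24 had 111225 counts and Rrnad1 29204, and the strand setting of the counting is not given in the sources used here.

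Mrpl58 (chr11:115403724-115412674), also known as Ict1, encodes a peptidyl-tRNA hydrolase that rescues stalled mitochondrial ribosomes and is built into the large subunit. Its naive WT libraries were at 47.8, 45.8 and 43.9 CPM and its weak 24 h libraries at 52.0, 47.0, 55.0 and 55.3 CPM, ranges that overlap (log2 0.19, SE 0.13, edgeR adjusted p = 0.163). In the other 3 comparisons its log2 difference lay between −0.05 and 0.20 and was not called. Mrpl23 (chr7:142532467-142540747) had few full counts, 1313 over all 58 libraries. Its levels were 1.22, 1.16 and 0.947 CPM in naive WT cells against 1.06, 1.04, 1.25 and 1.29 CPM at weak 24 h. With so few full counts a small change could not be detected (SE 0.36 on the log2 scale). Its introns held more, 6859 counts, and the reason was not tested. Intron counts were 664 in naive and 451 in weak 24 h WT libraries, and were not called (log2 0.33, SE 0.23, edgeR adjusted p = 0.219). Mrpl53 was called lower at 24 h and not at 48 h. Whether it shares reads with a neighbouring gene cannot be told from these tables, as described with the genotypes.

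The 3 Mrps18 genes encode variants of 1 bacterial protein that occupy different places in the mitochondrial ribosome. In naive WT cells they were expressed at nearly the same level per length, 30.6 ± 1.88 CPM per kb for Mrps18a (chr17:46111004-46128908), 28.3 ± 1.37 for Mrps18b (chr17:35910380-35916440) and 29.0 ± 3.98 for Mrps18c (chr5:100798759-100804467), which did not differ beyond their spread. After 24 h of the weak stimulus they had separated, at 106 ± 4.77 CPM per kb for Mrps18b, 81.6 ± 4.75 for Mrps18a and 50.0 ± 3.5 for Mrps18c. The log2 changes were 1.91 for Mrps18b, 1.42 for Mrps18a and 0.79 for Mrps18c, all 3 called by edgeR. The difference between these changes was not tested.

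Other genes of the same machinery rose too, set here against 36.7% of all genes that rose and 40.6% that fell after 24 h of the weak stimulus. The 5 mitochondrial ribosome genes with other symbols (Dap3, Ptcd3, Aurkaip1, Chchd1 and Gadd45gip1) all rose after 24 h of the weak stimulus in WT cells, with a median of 1.24 on the log2 scale. Ptcd3 and Chchd1 of the small subunit rose by 1.24 and 1.39, and Gadd45gip1 of the large subunit by 1.46. Of 20 genes of mitochondrial import, 19 rose (median 1.55), led by Timm50, Timm23 and Tomm40, parts of the inner and outer membrane translocases, at 2.44, 2.29 and 2.47 on the log2 scale. Of 77 genes of the respiratory chain and ATP synthase, 67 rose and 2 fell (median 0.92). Among them were Atp5b, a catalytic subunit of the ATP synthase, at 1.61, Sdhd of complex II at 1.85 and Ndufa12 of complex I at 2.03.

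The regulatory and processing genes were more mixed in the same comparison, where 36.7% of all genes rose and 40.6% fell. Of 14 translation factors 9 rose and 0 fell by edgeR (10 had an unadjusted p under 0.05), with the elongation factors Gfm1, Tufm and Tsfm at 2.09, 1.77 and 1.83. Of 25 assembly factors 16 rose and 3 fell, among them the RNA helicase gene Ddx28 at 1.88, Rcc1l at 1.35 and the ribosomal RNA methyltransferase gene Mrm3 at 1.76. Of 20 mitochondrial tRNA synthetase genes 13 rose and 2 fell, with Yars2 and Rars2, for tyrosine and arginine, at 1.80 and 1.48. Of 16 genes of mitochondrial DNA maintenance and transcription 10 rose and 4 fell. The helicase gene Supv3l1 and the partners Lrpprc and Slirp, which bind mitochondrial messenger RNA, were at 1.51, 1.28 and 1.82. Of 9 measured regulators of mitochondrial biogenesis 5 rose and 3 fell, with the coactivator gene Pprc1 higher by 0.90, Gabpb1, a subunit of the ETS factor GABP, higher by 0.48 and the nuclear receptor gene Esrra lower by −0.87 on the log2 scale. Of 83 cytosolic ribosomal protein genes tested, 11 rose and 31 fell, with a median of −0.23. The count that fell is near the share of all genes that fell. Among the 11 were Rps27l and Rpl7l1, paralogs of ribosomal protein genes, at 3.31 and 2.21, while Rps27 was at −1.79.

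Reads from introns give a second measurement of the same genes, since they come from unspliced RNA. Whether some of them are also in the full counts is not given in the sources used here. The intron table had 12366 genes with enough counts, 73 members among them. After 24 h of the weak stimulus in WT cells, 33 of the 73 members had higher intron counts and 7 lower ones, where 29.8% of all genes were higher and 30.7% lower, and the member median was 0.63 on the log2 scale against −0.04 for all genes. All 33 had also risen in the full counts, as had the 7 with lower intron counts, and 29 more rose in the full counts with no call in the introns. With library totals in place of TMM scaling, which moved the median of all genes by −0.27, the split was 23 higher and 12 lower among members and 2767 higher and 4843 lower among all 12366 genes, where TMM scaling gave 3689 and 3799. Without WT naive replicate 4 only 3 members were lower, and without WT weak 24 h replicate 2 only 4. Leaving out single libraries gave 22 to 40 members higher.

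Mrpl12 was high in both measurements. Its introns went from 4.19 ± 1.49 CPM (n = 3, 115 counts) to 24.4 ± 2.32 CPM (n = 4, 363 counts), a log2 difference of 2.55 (SE 0.29, edgeR adjusted p = 9.68e-11) beside 2.63 in the full counts. Mrpl45 gave 2.09 in introns and 2.27 in full counts, and Mrps6 gave 1.38 and 2.49, though another gene, Slc5a3, overlaps the Mrps6 span and can add intron reads. Mrps16 was the reverse, with 2.57 in introns on 81 and 257 counts and 0.74 in full counts. Mrpl9, a large subunit protein, had 35.0 ± 8.89 CPM of intron counts in naive cells and 15 ± 1.88 CPM after stimulation (log2 −1.22, SE 0.21, edgeR adjusted p = 2.01e-06), while its full counts rose by 0.83. Mrpl57 was among the largest intron rises too, at 1.97, and the other large intron falls were those of Mrpl41, Mrps24 and Mrpl14, at −1.66, −1.09 and −1.05. In the annotation Mrpl57 overlaps Ska3 and Mrpl14 overlaps Tmem63b, and the part of those genes in these values was not tested. The introns of Mrpl24 did not pass the test (log2 −0.31, SE 0.20, edgeR adjusted p = 0.162). Intron totals ran from 2739380 to 9106298 counts and were lower in every stimulated library than in any naive one, and intron CPM are scaled within that table.

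**Figure D3:**
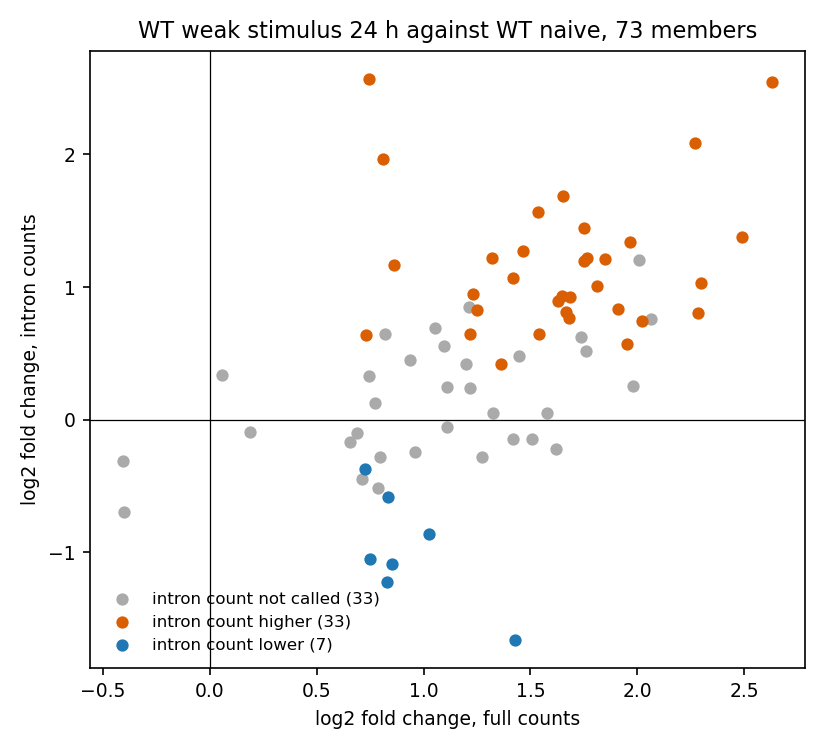
Log2 fold change in full counts (horizontal axis) and in intron counts (vertical axis) for the 73 members tested in both, WT weak stimulus at 24 h against WT naive; each point is a gene, coloured by its edgeR call in the intron counts. The points with lower intron counts, 7 in all, lie right of 0, where the full counts rose.

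Between 24 and 48 h of the weak stimulus the members slipped back in part. Under the weak stimulus 29 of 78 members fell and 3 rose in WT cells, where 19.3% of all genes fell and 21.9% rose, with a member median of −0.23 on the log2 scale. Under the very weak stimulus 15 fell and 1 rose (15.9% and 18.3% of all genes), with a median of −0.17. There the count that fell is near the share of all genes. Mrpl12 fell most, by 0.64 on the log2 scale under the weak stimulus (SE 0.14, edgeR adjusted p = 0.000181), followed by Mrpl36, Mrpl2 and Mrpl3 at −0.60, −0.58 and −0.52. Mrpl2 (chr17:46646172-46650132), a protein at the peptidyl transferase centre, was at 95.2, 74.8, 88.7 and 83.4 CPM at 24 h and at 62.1, 56.5, 56.2 and 54.9 CPM at 48 h, with no overlap. Under the very weak stimulus the largest falls were those of Mrpl12 and Mrpl2, both at −0.49, Mrpl36 at −0.46 and Mrps12 at −0.41. The 3 that rose under the weak stimulus were Mrpl14, Mrps33 and Mrpl53, by 0.39, 0.32 and 0.31, and Mrps33 was the 1 that rose under the very weak stimulus. These few were not firm: without WT weak 24 h replicate 1 or replicate 2 none rose under the weak stimulus, and without WT weak 48 h replicate 2 or replicate 4 only 1 did. The single rise under the very weak stimulus was lost without very weak 24 h replicate 3 or replicate 4, or without very weak 48 h replicate 4.

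No difference between the doses of anti-CD3 was detected. Between the weak and very weak stimulus in WT cells edgeR called 0 of 78 members at 24 h and 0 at 48 h, in either direction, and 0% of all genes. DESeq2 also called 0 at both times, and 0 members had an unadjusted p under 0.05 at either time. Weak and very weak libraries of the same number deviated together (correlations 0.268 to 0.398 at 24 h and 0.277 to 0.631 at 48 h). These tests leave that pairing out, which makes them less sensitive. The fit with a replicate block also called 0 of 13709 genes at either time. The member medians were 0.03 at 24 h and −0.06 at 48 h on the log2 scale. A p that misses the threshold does not show that the doses act alike.

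In naive cells few or no members passed the test in either genotype. Between KO and WT naive cells edgeR called 0 of 78 members, against 0.0146% of all genes higher and 0.0219% lower. DESeq2 also called 0, 5 members had an unadjusted p under 0.05, and the median was 0.09. In TG naive cells 2 members were higher and 1 lower than in WT, against 4.3% and 3.48% of all genes. Mrps18b was at 18.0, 22.6, 18.7 and 25.2 CPM in TG naive libraries and at 31.3, 28.5 and 29.8 CPM in WT ones, which did not overlap (log2 −0.50, SE 0.12, edgeR adjusted p = 0.00447). Mrpl48 (chr7:100545779-100608301) was at 24.9, 24.5, 22.0 and 32.4 CPM against 19.6, 18.3 and 16.5 CPM, again without overlap (log2 0.51, SE 0.13, edgeR adjusted p = 0.00807). Mrpl44 (chr1:79776018-79781445), an RNase III-like protein of the large subunit, was higher by 0.37 (SE 0.11, edgeR adjusted p = 0.0334), with TG replicate 3 inside the WT range. The higher calls depended on single libraries: 5 members were higher without TG naive replicate 3, 1 without TG naive replicate 2, WT naive replicate 1 or WT naive replicate 2, and 0 without TG naive replicate 4 or WT naive replicate 4.

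In stimulated KO cells few members passed the test in any single state. KO cells had 0 members higher and 1 lower than WT after 24 h of the very weak stimulus (0.635% of all genes higher and 0.43% lower) and 2 lower after 48 h of it (2.96% and 1.52%). After 24 h of the weak stimulus edgeR called 0 either way (0.781% and 0.627%), with 2 members at an unadjusted p under 0.05 and 1 lower by DESeq2. After 48 h of it 1 member was lower (2.98% and 2%). No member was higher in these 4 comparisons by edgeR or by DESeq2, and the members with an unadjusted p under 0.05 in either direction numbered 6, 24, 2 and 21. The member medians were −0.09, −0.17, 0.03 and −0.18 on the log2 scale, in the same order, with 70, 73, 27 and 75 of 78 members below 0. Among all genes 6969, 6685, 6891 and 6782 of 13709 were below 0. Mrpl53 made up all of these calls but 1. The other was Mrps5, lower in KO cells after 48 h of the very weak stimulus at 61.1, 49.4, 71.0 and 53.4 CPM against 74.9, 68.0, 74.7 and 72.7 CPM (log2 −0.31, SE 0.09, edgeR adjusted p = 0.0448), with KO replicate 3 inside the WT range.

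After 48 h of the weak stimulus the summed member level was 4584, 4125, 4503 and 4437 CPM in KO libraries, all below the 4 WT libraries, and 5240.4, 5739, 5930.4 and 5069 CPM in TG libraries, where replicate 4 lay inside the WT range. The KO replicate 3 of the very weak 48 h group stood apart. Its summed member level was 5900.3 CPM where the other 3 KO libraries of the very weak 48 h group were at 4339.6, 3808 and 4365 CPM and the WT libraries at 4855 to 5496 CPM. Without it 28 of 78 members were lower in KO than in WT cells, against 3.78% of all genes, and without any 1 of KO replicates 1, 2 and 4 or WT replicates 2 and 4 only 1 member was. Under the weak stimulus at 48 h, where Mrpl53 alone was lower, 3 members were lower without KO replicate 3, and 2 without KO replicate 4 or WT replicate 1. A fit with the replicate number as a block gave 4 lower there (3.71% of all genes) and 1 at weak 24 h (1.5% of all genes). At very weak 24 h the call of Mrpl53 was lost without any 1 of KO replicates 1 to 4 or WT replicates 1, 2 and 4, and without WT weak 24 h replicate 3 it was gained at weak 24 h as 1 member lower.

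In stimulated TG cells the members that passed the test were higher. TG cells had 1 member higher than WT after 24 h of the very weak stimulus (1.79% of all genes higher), 6 after 48 h of it (6%), 1 after 24 h of the weak stimulus (2.24%) and 4 after 48 h of it (4.29%). These counts, from the fit that leaves out the pairing by replicate number, are near the shares of all genes. None was lower in these 4 comparisons by edgeR or by DESeq2, and the shares of all genes lower were 1.85%, 7.16%, 2.45% and 5.62%. The members with an unadjusted p under 0.05 in either direction numbered 2, 15, 6 and 22. Besides Mrpl53, the members called higher at 48 h of the very weak stimulus were Mrpl1, Mrpl47, Mrps22, Mrpl35 and Mrps2, and at 48 h of the weak stimulus Mrpl18, Mrps18b and Mrpl9. Mrpl1 had 72.0, 70.1, 68.7 and 82.3 CPM in TG and 55.1, 47.9, 49.0 and 57.2 CPM in WT libraries of the very weak 48 h group, with no overlap (log2 0.49, SE 0.14, edgeR adjusted p = 0.0147).

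The TG counts at 48 h also moved with single libraries. Under the very weak stimulus 3 members were higher without TG replicate 1 or replicate 3, 2 without WT replicate 1, and 1 without TG replicate 4 or WT replicate 2. Under the weak stimulus 7 were higher without TG replicate 4 or WT replicate 3, 2 without WT replicate 1 or replicate 2, and 1 without TG replicate 2, TG replicate 3 or WT replicate 4. The fit with a replicate block gave 10 higher there (6.44% of all genes) and 2 at 24 h (4.17% of all genes), where 3 were higher without TG replicate 4.

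To compare genotypes over the stimulated states together, counts were summed over the 4 stimulated libraries that share a genotype and a replicate number, which leaves 4 sums a genotype. The summed member level was 5141, 4970.0, 5561 and 4684 CPM in KO sums, 5445, 5204, 5538 and 5448 CPM in WT sums and 5814, 5816, 5942 and 5391 CPM in TG sums. KO and WT overlap on this scale, and TG replicate 4 lies inside the WT range. KO sums had 1 member lower and 0 higher than WT sums, against 2.37% of all genes lower and 3.64% higher (11 members with an unadjusted p under 0.05, 5 lower by DESeq2), with a median of −0.09. TG sums had 6 members higher and 0 lower, against 6.26% and 7.06% of all genes (20 members with an unadjusted p under 0.05, 12 higher and 0 lower by DESeq2), with a median of 0.09. These 2 comparisons share the WT sums and leave out the pairing by replicate number.

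TG and KO sums, compared directly, differed in more members. In TG sums 38 of 78 members were higher and 2 lower than in KO sums, where 20.8% of all genes were higher and 23.4% lower, with a member median of 0.18 on the log2 scale and an all-gene median of −0.01. Without Mrpl53 it was 37 of 77. By subunit, 26 of 49 Mrpl genes and 12 of 29 Mrps genes were higher. The 2 lower were Mrpl17 and Mrpl24, by −0.21 and −0.16. The 8 with the smallest adjusted p were Mrpl53, Mrpl47, Mrpl3, Mrpl20, Mrpl35, Mrpl18, Mrps2 and Mrps34, all higher, by 0.26 to 1.22. TG and KO sums of the same replicate number deviated together (correlations 0.285 to 0.414), and the counts and p-values of this comparison leave that pairing out. Leaving out single sums gave 31 to 53 members higher and 0 to 2 lower. Without any 1 of TG replicates 1 to 3 or KO replicates 1 and 2 only 1 member was lower, and without KO replicate 3 or TG replicate 4 none was.

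The members behind the TG calls showed small shifts. Mrpl47 (chr3:32727497-32736755) stood at 32.8, 28.0, 29.9 and 24.9 CPM in KO sums, at 33.4, 32.6, 33.9 and 38.2 CPM in WT sums and at 42.6, 42.0, 41.3 and 40.4 CPM in TG sums. TG lay above both other genotypes in every sum, and KO overlapped WT (TG against WT log2 0.27, SE 0.08, edgeR adjusted p = 0.0423). Mrps22 had 60.0, 54.4, 52.9 and 49.0 CPM in KO, 58.1, 53.5, 54.6 and 60.2 CPM in WT and 69.9, 67.7, 65.2 and 68.2 CPM in TG sums (TG against WT log2 0.26, SE 0.06, edgeR adjusted p = 0.0204). Mrps2 (chr2:28465951-28471177), a small subunit protein, averaged 71.7 ± 2.61 CPM in WT and 81.9 ± 3.71 CPM in TG sums (SD, n = 4; edgeR adjusted p = 0.0258). Mrps31 (chr8:22410449-22429669) and Mrpl22 (chr11:58170043-58179580), a protein lining the exit tunnel, were higher in TG by 0.24 and 0.21.

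These counts depended on how the pairing was treated. Sums of the same replicate number deviated together. With that number as a block 9 of 78 members were lower in KO (9.14% of all genes) and 20 of 78 higher in TG sums (14.4% of all genes) than in WT. Without KO sum 3, 6 members were lower in KO, and without KO sum 1, 2 were. For TG, leaving out 1 sum gave 1 to 3 members higher for each of TG sums 1 to 4 and WT sums 1 to 3. Within replicates 1 and 2 the member median of TG against WT was 0.15 and within replicates 3 and 4 it was 0.05, and for KO it was −0.09 and −0.11. Within single states these pairs of replicates did not always keep 1 direction: the KO median at weak 24 h was 0.11 in replicates 1 and 2 and −0.04 in replicates 3 and 4, and the TG median at very weak 24 h was 0.08 and −0.03.

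**Figure D4:**
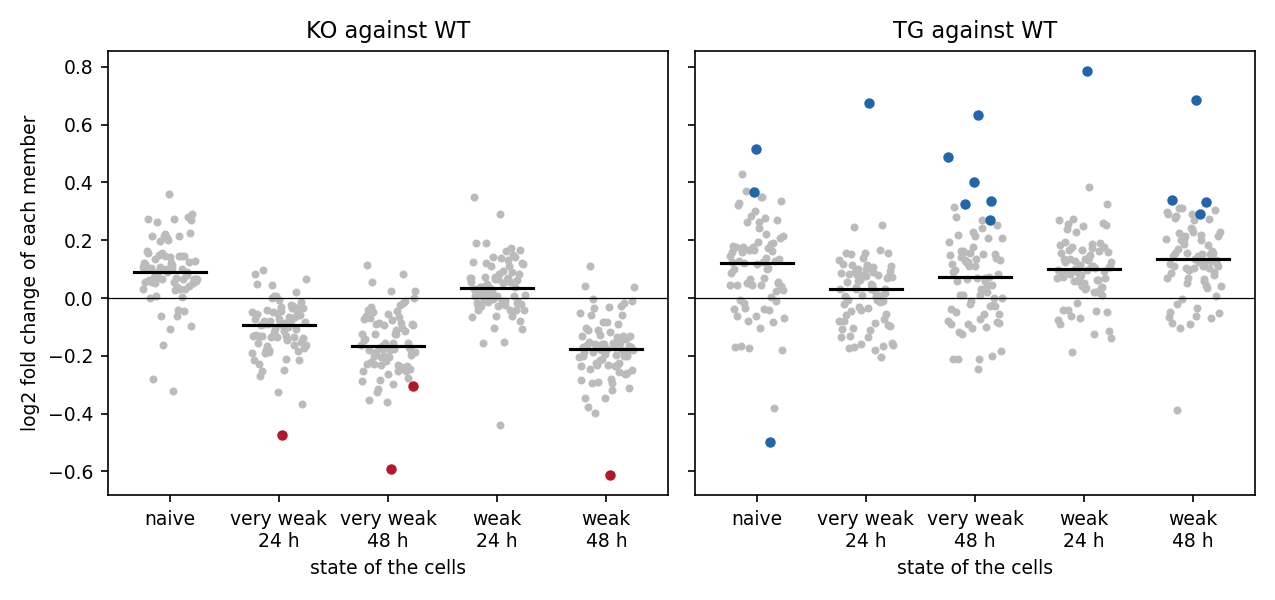
Log2 differences of KO (left) and TG (right) from WT for each member (vertical axis, log2) in naive cells and in the 4 stimulated states; each point is a gene, coloured points have an edgeR adjusted p under 0.05 and the bar is the median of the 78. Medians stay between −0.18 and 0.13 and 1 gene, Mrpl53, is the lowest point in each stimulated KO state and the highest in each stimulated TG state.

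Mrpl53 (chr6:83109108-83109932), a large subunit protein without a bacterial counterpart, had the largest genotype difference of any member. In the sums it was at 18.5, 17.7, 17.6 and 16.9 CPM in KO, 27.2, 26.4, 22.5 and 26.1 CPM in WT and 41.4, 46.2, 40.3 and 36.9 CPM in TG cells. The 3 genotypes did not overlap, and the differences from WT were −0.53 for KO (SE 0.08, edgeR adjusted p = 0.00263) and 0.69 for TG (SE 0.08, edgeR adjusted p = 0.000275) on the log2 scale. In single stimulated libraries KO lay between 14.3 and 22.9 CPM, WT between 19.6 and 31.1 CPM and TG between 33.2 and 57.6 CPM. Within each stimulated state TG lay above WT in every library, and KO lay below WT except at weak 24 h, where 1 KO library at 19.7 CPM met a WT library at 19.6 CPM. In naive cells the genotypes overlapped, at 25.8, 29.4 and 18.4 CPM in KO, 28.4, 29.6 and 34.0 CPM in WT and 30.8, 27.2, 30.4 and 25.8 CPM in TG libraries.

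Whether the reads counted for Mrpl53 are all its own cannot be told from these tables. The gene that lies just before Mrpl53, Ccdc142 (chr6:83101516-83109121), overlaps its first bases on the same strand in RefSeq. Ccdc142 is no member and was singled out after its values were seen. The authors' gene model of Mrpl53 is 1637 bases wide with 165 of intron, longer than the RefSeq span of 825 bases. Ccdc142 had 20.0, 19.7, 20.0 and 19.8 CPM in KO, 29.3, 28.8, 25.1 and 28.9 CPM in WT and 43.9, 49.3, 42.8 and 39.1 CPM in TG sums, the same order and nearly the same levels. Its differences from WT were −0.50 in KO and 0.64 in TG (edgeR adjusted p = 0.00263 and 0.000275). Across the 58 libraries, which share depth and groups, the log2 counts of the 2 genes correlated at r = 0.94 (given as a description), and the ratio of Mrpl53 to Ccdc142 counts had a median of 0.678 in naive and 0.920 in stimulated libraries. The ranges of this ratio did not overlap, at 0.623 to 0.733 in naive and 0.797 to 0.968 in stimulated libraries. On activation in WT cells edgeR called Ccdc142 lower at 24 h, by log2 −0.87 (very weak) and −0.86 (weak). It was also called lower at 48 h, by −0.60 and −0.57, where Mrpl53 was not called. Which of the 2 transcripts carries the genotype difference was not tested. Without Mrpl53, 0 of 77 members were lower in KO and 5 higher in TG than in WT sums by edgeR.

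**Figure D5:**
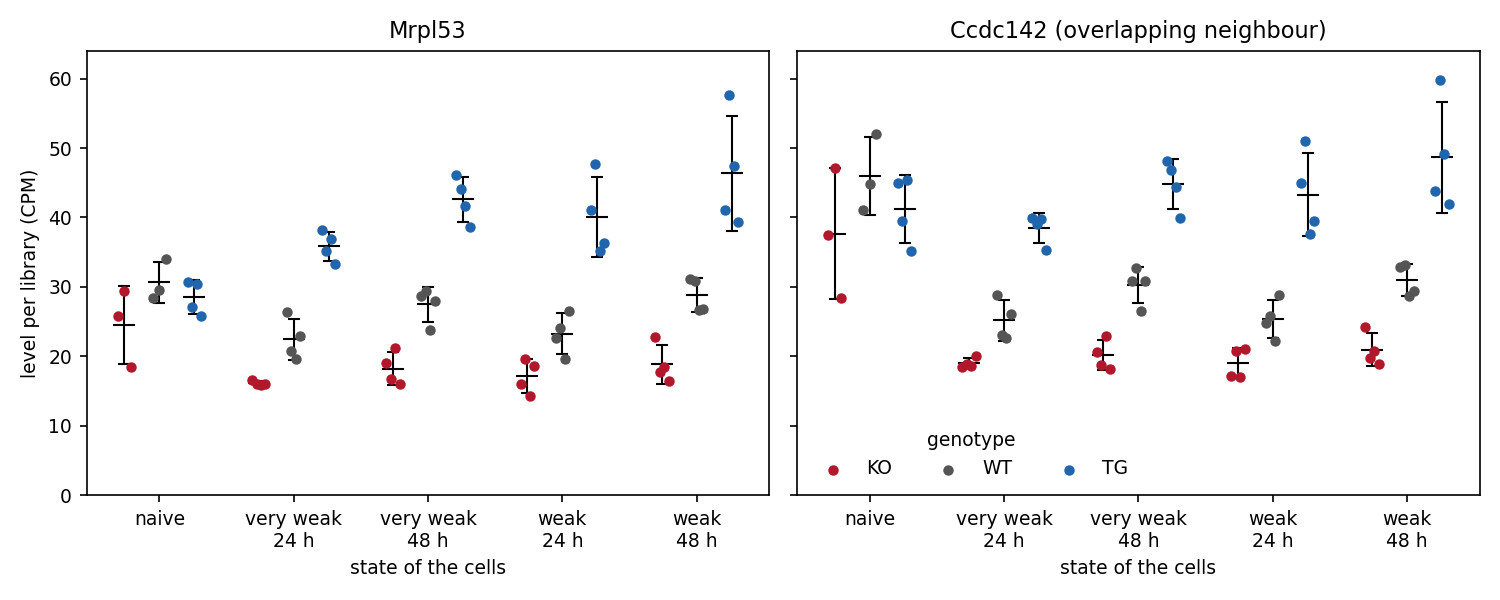
Level in CPM per library (vertical axis, from 0) of Mrpl53 (left) and of the overlapping gene Ccdc142 (right) by state, with genotypes in colour; points are libraries and bars the mean ± SD of a group. In stimulated cells TG libraries lie above WT and KO libraries below it in both panels, except that 1 KO library meets a WT library for Mrpl53 at weak 24 h, and in naive cells the genotypes overlap.

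Overlaps of this kind touch other members too. In the annotation 21 members overlap another counted gene. Besides Mrpl53, Mrpl27 with Eme1 and Mrpl18 with Tcp1 had log2 counts that correlated above 0.9 across the 58 libraries, at 0.94 and 0.95. A shared response and shared reads cannot be told apart from these tables.

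Whether activation itself differed between genotypes was tested as the mean change of the 4 stimulated states from naive, in KO or TG minus the same in WT. For KO, edgeR called 0 of 78 members either way, against 0.146% of all genes higher and 0.0365% lower (14 members with an unadjusted p under 0.05, 0 by DESeq2). The KO median was −0.19, and 1 member was lower without KO naive replicate 2. For TG, 2 members rose more than in WT and 0 less, against 2.55% and 3.63% of all genes (9 with an unadjusted p under 0.05, 3 higher and 0 lower by DESeq2). They were Mrpl53 (log2 0.80, SE 0.15, edgeR adjusted p = 0.000324) and Mrps18b (log2 0.64, SE 0.13, edgeR adjusted p = 0.001). Without TG naive replicate 3, 2 members rose less. The Mrps18b value rests on its low naive level in TG cells and on its 48 h level, where TG weak libraries had 108, 117, 114 and 93.5 CPM and WT ones 90.8, 80.6, 93.9 and 78.2 CPM, while at weak 24 h TG and WT libraries lay together at 111 to 115 and 106 to 118 CPM.

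Some other mitochondrial genes passed the test between genotypes in the sums. Against WT, import genes had 3 of 20 lower in KO (Tomm20 −0.25, Timm8b −0.36) and 3 higher in TG (Tomm20 0.26, Timm8b 0.25). Of 77 respiratory chain genes 2 were lower in KO, namely Uqcrfs1 at −0.23 and Cyc1 at −0.26, and in TG 3 were higher and 1 lower, with Uqcrfs1 at 0.25 and Cyc1 at 0.27. The respiratory chain counts are near or below the shares of all genes, 2.37% lower in KO and 6.26% higher in TG. These comparisons share the WT sums. Between TG and KO sums, compared directly and without the pairing by replicate number, 20.8% of all genes were higher in TG and 23.4% lower. Of 20 import genes 13 were higher in TG than in KO sums and 1 lower (median 0.29), led by Timm8b, a small intermembrane space chaperone, at 0.62 and the receptor gene Tomm20 at 0.50. Of 77 respiratory chain genes 32 were higher and 4 lower (median 0.15), with Uqcrfs1 and Cyc1, both of complex III, at 0.47 and 0.53. Of 5 mitochondrial ribosome genes with other symbols 3 were higher. Of 14 translation factors 6 were higher and 1 lower, among them Mtfmt, which formylates the initiator tRNA, at 0.44. The 20 tRNA synthetase genes were split 4 and 4, near the shares of all genes. Of 9 regulator genes 2 were higher and 1 lower, near or below those shares, with Esrra higher by 0.70 and Gabpb1 lower by −0.27 in TG. Genes of mitochondrial DNA maintenance and transcription went both ways. Tfb2m, a mitochondrial transcription factor, was lower in TG than in KO sums by −0.69, and Lrpprc was higher by 0.27. Tfb2m was at 16.8 ± 0.875 CPM in TG, 20.1 ± 1.70 in WT and 27.1 ± 1.52 in KO sums (SD, n = 4). Of 83 cytosolic ribosomal protein genes 3 were higher and 15 lower in TG (median −0.12), both below the shares of all genes. Some marker genes passed the test too between TG and KO sums: 6 of 8 CD4 T cell genes and 1 of 2 CD8 T cell genes were lower in TG, 2 of 5 NK cell genes and 1 of 8 B cell genes were higher, and 1 of 6 myeloid genes was lower. The B cell and myeloid counts are below the shares of all genes. Over single stimulated libraries the CD4 T cell sum ran from 2622 to 4169 CPM in KO, 2508 to 3569 CPM in WT and 2058 to 3128 CPM in TG, and the NK cell sum from 3.21 to 41.6, 8.81 to 37.2 and 20.0 to 55.7 CPM. Their part in the differences was not tested.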

How the data were processed

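Poly(A) RNA of 58 libraries in 15 groups was sequenced as single-end reads of 76 bases. The authors deposited raw counts per gene, for whole genes and for introns alone, with build mm10, STAR 2.5.2a, edgeR 3.24.3, R 3.5 and FastQC 0.11.5 listed, without roles, per the submitters' processing notes. No source used here gives the counting program, annotation or strand setting, and reads of overlapping genes cannot be told apart. Of 24028 genes, 23968 were named through RefSeq and 7 through GENCODE. Intron counts exceeded full counts in 14.1% of values, so whole-gene counts do not contain all intron counts. Full totals were 19197383 to 20810338 counts and intron totals 2739380 to 9106298 counts.

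Counts were fitted in R 4.3.3 with edgeR 4.0.16 (filterByExpr, TMM factors 0.9392 to 1.06, quasi-likelihood F test, Benjamini-Hochberg adjustment over all genes tested, 43 residual degrees of freedom with all 15 groups in 1 fit, 9 for the sums). The fit was also run on simulated counts that had no effect shared by replicate number, so that run does not cover the pairing described below. A standard error is the log2 fold change over the square root of F. Named members are the 5 highest and 3 lowest per length, the 4 largest rises and falls among those called in a comparison, those that went against or were never called on activation, those called in naive genotypes or in sums (the 8 of smallest adjusted p where over 15), and the Mrps18 genes. From each other list up to 3 genes were named by smallest adjusted p. The members and all lists were chosen with earlier results of these data known. Same-numbered libraries of different genotypes deviated together within each stimulated state (correlations from 0.132 to 0.625) and in the sums of KO and WT (0.367 to 0.655). Every such pair in stimulated cells and in the sums was over the 0.1 required. Same-numbered WT libraries of the 2 doses also deviated together (0.268 to 0.631), as did TG and KO sums (0.285 to 0.414). The main counts and p-values between genotypes and between doses leave this pairing out, and the fit with a replicate block takes it in. In naive cells not every pair passed the 0.1 required: KO and WT pairs ran from 0.0818 to 0.391 and TG and WT pairs from -0.0487 to 0.366. Alternatives were library totals in place of TMM, no filter on low counts, only the 2 groups compared, DESeq2 1.42.0, a replicate block, and each library left out, and, chosen after seeing the data, replicates 1 and 2 or 3 and 4 within single states.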

Additional observations from a re-analysis of the deposited data

Results flagged for a closer look

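In 143 groups of 4 libraries, over the members named with values by library, 8 held a library whose distance from the nearest other was large for the range of the group, where chance gives about 1 in 20. The count is near that rate. Mrpl12 was at 264.5 CPM in TG weak 24 h replicate 4, with the other 3 at 338 to 344 CPM, and at 192.1 CPM in WT weak 48 h replicate 3, with the others at 164 to 165 CPM. Mrps6 was at 100.9 CPM in TG weak 48 h replicate 3, against 78.1 to 79.3 CPM. Mrpl24 was at 110.8 CPM in KO weak 48 h replicate 1, against 83.6 to 87.7 CPM, and at 106.8 CPM in TG naive replicate 3, against 114 to 115 CPM. Mrps18b was at 111.4 CPM in TG weak 24 h replicate 2, against 114 to 115 CPM. Mrpl23 was at 1.708 CPM in KO weak 24 h replicate 2, against 0.899 to 0.996 CPM, and Mrpl58 at 49.92 CPM in TG very weak 24 h replicate 4, against 55.7 CPM in each of the others.

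The change on activation differed between TG and WT cells by edgeR's test of the difference itself for Mrpl53, by 0.799 on the log2 scale, and for Mrps18b, by 0.6409. Mrpl53 overlaps Ccdc142, and whether the 2 share reads cannot be told from these tables.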

How the results depend on the processing

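No named gene that passed the test changed sign under the alternatives that were run, but the balance of calls in TG naive cells, 2 higher and 1 lower, turned to 1 and 2 with only the 2 groups compared and to 0 and 1 without TG naive replicate 4 or WT naive replicate 4. Of the summary values under alternatives, 644 stayed close to the main value and 109 moved, and of the named genes' calls 923 held and 151 were lost. The rise on activation in WT cells kept 73 to 75 members in all of them. Counts between genotypes are small and moved often. The cause was not tested.

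With library totals in place of TMM scaling, 0 members were lower in KO at very weak 24 h and 2 at weak 48 h, 6 were higher in TG naive cells, 2 rose less on activation in TG cells, and 12 had lower intron counts. Without the filter on low counts, KO had 0 lower at very weak 24 h and 1 at very weak 48 h. TG then had 1 higher in naive cells, 3 at very weak 48 h, 2 at weak 48 h and 2 in the sums, 0 members rose from 24 to 48 h under either stimulus, and 1 was lower in TG than in KO sums. With only the 2 groups compared in the fit, KO had 0 lower at 48 h of either stimulus. TG had 1 higher and 2 lower in naive cells, 3 higher at very weak 48 h and 1 at weak 48 h, and 4 members (very weak) and 5 (weak) rose from 24 to 48 h. DESeq2 called 1 lower in KO at weak 24 h, 3 at weak 48 h and 5 in the sums (4.44% of all genes). It called 4 higher in TG naive cells, 2 at weak 24 h, 9 at weak 48 h (5.06%) and 12 in the sums (9.25%), and 1 lower in TG than in KO sums.

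With the replicate block, the paired fit, KO had 1 lower at weak 24 h, 4 at weak 48 h and 9 in the sums (9.14% of all genes). TG had 2 lower in naive cells, 2 higher at weak 24 h, 10 at weak 48 h and 20 in the sums (14.4%), 1 member rose less on activation in TG cells, and 2 rose from 24 to 48 h under the very weak stimulus. With 16 libraries a genotype in place of sums, 16 members were lower in KO (11.3% of all genes) and 26 higher in TG (16%), with p-values that treat states of 1 number as separate. With replicates 1 and 2 alone 13 were lower in KO sums (6.93% of all genes), 31 higher in TG sums (12.2%) and 0 lower in TG than in KO sums. With replicates 3 and 4 alone 9 were lower in KO sums (8.58%) and 4 lower in TG than in KO sums.

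Leaving out 1 library gave, for members lower in KO, 0 to 1 at very weak 24 h, 1 to 28 at very weak 48 h, 0 to 1 at weak 24 h, 1 to 3 at weak 48 h and 1 to 6 in the sums. For members higher in TG it gave 0 to 5 in naive cells, 1 to 7 at very weak 48 h, 1 to 3 at weak 24 h, 1 to 7 at weak 48 h and 1 to 4 in the sums. It gave 0 to 1 (very weak) and 0 to 2 (weak) members that rose from 24 to 48 h, 10 to 15 and 22 to 30 that fell, and 0 to 1 and 0 to 2 that rose less on activation in KO and TG cells. In TG than in KO sums 31 to 53 were higher and 0 to 2 lower, and 22 to 40 members had higher and 3 to 8 lower intron counts.

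Few counts limit the full values of Mrpl23, at 1313 counts in all, and the intron values of members with under about 100 counts a group, such as Mrpl41 with 87 and 14.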
